A study of Rattus norvegicus with 6 samples.

Results

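The genes described here encode the subunits and assembly factors of mitochondrial complex I, taken as every row of the deposited gene table whose symbol begins with Nduf, with 1 row kept per Ensembl identifier. The rule gave 43 of 21648 genes. By symbol they were divided into 12 rows of Ndufs and Ndufv genes (called core here), 25 rows of the accessory Ndufa, Ndufb and Ndufc genes, and 6 Ndufaf assembly factors. RNA was sequenced from ventricular heart muscle cells of wild-type rat pups on postnatal day 3. The cells were kept in culture and given either 10 µM of compound 915, which the submitters call an ERR agonist (ERRs are the estrogen-related nuclear receptors), or the solvent DMSO, both for 72 h, with 3 libraries per group. The rat strain is not given in the sources used here. Both groups shared a 90 min step on plastic that removes attaching fibroblasts, plating in serum with 100 µM bromodeoxyuridine, and later serum-free medium with insulin, transferrin and selenium. The libraries are called biological replicates, but nothing says that they came from separate isolations, so a p-value covers only library-to-library spread, some of which may be technical.

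Complex I is the entry point of the respiratory chain. It takes electrons from NADH at the tip of an arm that reaches into the mitochondrial matrix (the N module), passes them along iron-sulfur clusters to ubiquinone (the Q module), and uses the energy to pump protons through a long arm in the inner membrane. A catalytic core conserved from bacteria is surrounded by many accessory subunits, part of the core is encoded by mitochondrial DNA, and dedicated assembly factors put the pieces together. ERRs, with their PGC-1 coactivators, are known regulators of such genes in heart, a tissue that depends on oxidative metabolism.

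Levels are given as deposited CPM, counts scaled by 1 total per library. CPM is not corrected for gene length, so levels are compared between libraries and not between genes. Count tables held 30639244 to 40010826 reads per library, and 3 reads, the limit that a count of 0 allows, corresponded to 0.0698 to 0.0917 CPM (counting error only). Markers of the labelled cell type were abundant: each of the 11 cardiomyocyte markers with a row averaged at least 506 CPM in both groups. Fibroblast markers were present too: 11 of them summed to 22944 to 23843 CPM with DMSO and 11933 to 12593 CPM with 915, beside 23085 to 24274 and 33045 to 33626 CPM for the cardiomyocyte markers. Col1a1 (11988 and 6289 CPM on average with DMSO and 915) and Col3a1 (7067 and 2826 CPM) made up most of the fibroblast sum. In such bulk samples, fewer cells of a type and less RNA per cell cannot be told apart.

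Transcripts of complex I genes were more abundant with 915, by a similar factor for most of the nuclear subunits. Of the 42 members that passed the filter on low counts, 36 were higher and 1 was lower at an adjusted p under 0.05 (edgeR quasi-likelihood test, Benjamini-Hochberg adjustment over all 14253 genes tested). Over all genes tested, 24.3% were called higher and 25.5% lower. The median log2 fold change of the tested members was 0.41 (quartiles 0.33 and 0.51), a 1.33-fold difference, against a median of −0.01 over all genes. In 33 of the 42 members all 915 libraries lay above all DMSO libraries in CPM, as they did in 23.9% of all genes tested. In 2 members they lay below, as in 32.8% of all genes. The changes were moderate: 6 members were more than 1.5-fold higher and 3 had a log2 fold change below 0.

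**Figure D1:**
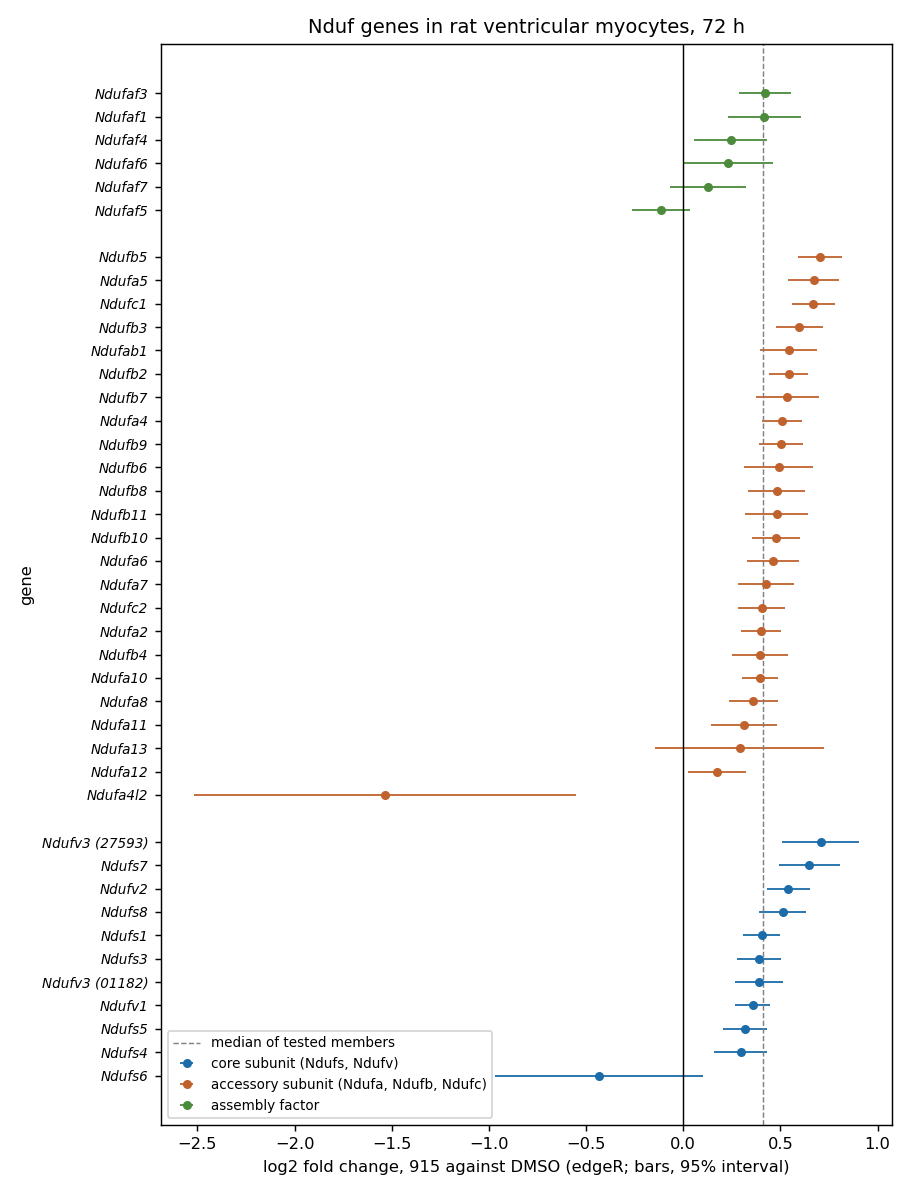
Log2 fold change of 41 of the 42 tested Nduf genes (x axis, 915 against DMSO, edgeR), with its 95% interval, sorted within core subunits, accessory subunits and assembly factors (y axis); the dashed line is the median of 0.41 over all 42. Most subunits lie between 0.3 and 0.7, with Ndufa4l2 at −1.53 and Ndufs6, a pseudogene row, at −0.43 apart from the rest; the 2 Ndufv3 rows carry the last digits of their identifiers.

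Together the 43 members took 0.507%, 0.563% and 0.523% of the authors' library totals in DMSO libraries 1 to 3, and 0.716%, 0.696% and 0.714% in 915 libraries 1 to 3. The 915 values were all above the DMSO values, 1.33 times as high on average. DMSO library 2 was the highest of its group, with 38 of the 42 tested members above their own DMSO mean, where DMSO libraries 1 and 3 had 4 and 15. In each 915 library 39 of 42 members were above the DMSO mean. These counts per library were not made over all genes tested. Without DMSO library 2 the median log2 fold change of the members was 0.46.

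**Figure D2:**
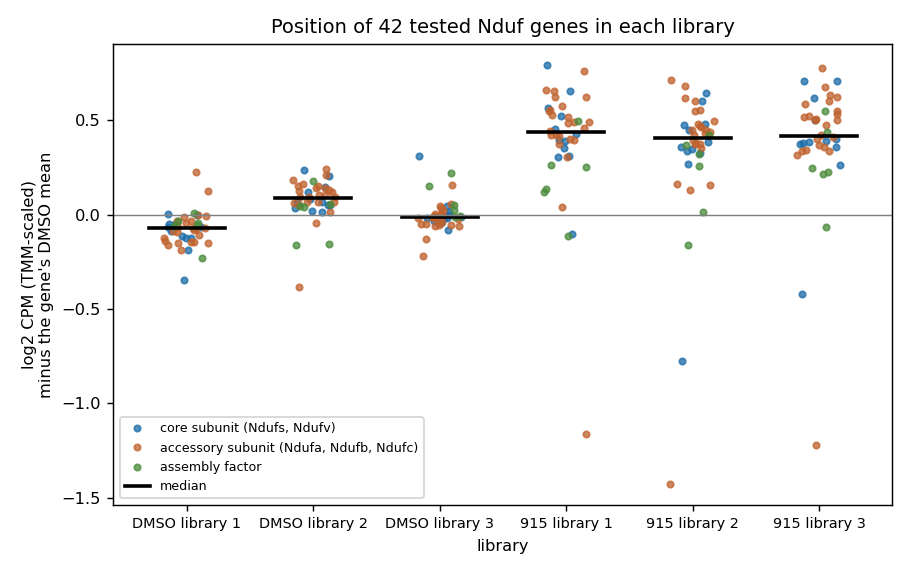
Each point is 1 of the 42 tested Nduf genes in 1 library (x axis), as log2 CPM scaled by TMM minus that gene's mean over the DMSO libraries (y axis); bars are medians. The medians are −0.07, 0.09 and −0.01 in DMSO libraries 1 to 3 and 0.44, 0.41 and 0.42 in 915 libraries 1 to 3, with Ndufa4l2 as the lowest point of each 915 library.

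Genes of the catalytic core of the matrix arm were higher. Ndufv1, Ndufv2, Ndufs1, Ndufs3, Ndufs7 and Ndufs8 were each called higher. Their log2 fold changes ran from 0.36 to 0.65, and in these 6 genes the 915 libraries lay above the DMSO libraries. The widest difference was that of Ndufs7, whose product holds the last iron-sulfur cluster before ubiquinone. Its DMSO libraries 1 to 3 held 121, 149 and 123 CPM, and 915 libraries 1 to 3 held 199, 192 and 205 CPM. The highest DMSO value stayed below the lowest 915 value, and the log2 fold change was 0.65 ± 0.0729 (SE, edgeR adjusted p = 4.75e-06). Ndufs8, another iron-sulfur subunit of the Q module, stood at 105, 119 and 108 CPM with DMSO and 158, 149 and 151 CPM with 915. That is a 1.43-fold difference with no overlap (log2 0.51 ± 0.0571, edgeR adjusted p = 4.47e-06).

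Ndufs3, which lies in the part of the Q module leading to the quinone site, was at 110, 119 and 112 CPM with DMSO and at 150, 141 and 140 CPM with 915. It rose 1.31-fold, and the groups did not overlap (log2 0.39 ± 0.0527, edgeR adjusted p = 2.80e-05).

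At the NADH-binding tip, Ndufv1 encodes the flavin subunit that accepts the electrons. It was even within groups, at 315, 314 and 309 CPM with DMSO and 386, 382 and 393 CPM with 915. Its 1.28-fold rise was the smallest of these 6 core genes, yet far outside the spread of libraries (log2 0.36 ± 0.0428, edgeR adjusted p = 8.89e-06). Ndufv2, the neighbouring iron-sulfur subunit, rose 1.45-fold, from 214, 227 and 216 CPM to 305, 296 and 324 CPM (log2 0.54 ± 0.0512, edgeR adjusted p = 8.48e-07). Ndufs1, the largest subunit of the complex and carrier of several clusters, rose 1.32-fold, from 222, 220 and 217 CPM to 278, 290 and 274 CPM (edgeR adjusted p = 3.81e-06). All 3 genes had separate groups.

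The other rows that begin with Ndufs or Ndufv are accessory by function. Ndufs4, a late-joining subunit of the N module whose loss causes Leigh syndrome in people, rose 1.23-fold, from 91.1, 108 and 96.9 CPM to 118, 120 and 114 CPM (log2 0.30 ± 0.0631, edgeR adjusted p = 0.00138). Ndufs5, on the membrane arm, rose by log2 0.32 ± 0.0524, from 92.2, 98.4 and 96.6 CPM to 115, 112 and 120 CPM (edgeR adjusted p = 0.000174). In both, the highest DMSO library was below the lowest 915 library. The row named Ndufs6 is annotated as a processed pseudogene and had 1.61, 2.07 and 2.53 CPM with DMSO and 1.83, 1.13 and 1.45 CPM with 915, which overlapped (edgeR adjusted p = 0.166). 2 rows under LOC symbols, which the table pairs with the Entrez numbers of both Ndufs6 and its pseudogene Ndufs6-ps1, held at most 0.289 CPM in any library, so no value for the working gene is given.

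Ndufv3, an accessory subunit of the N module known to occur as a short and a long protein, had 2 rows with different identifiers. ENSRNOG00000001182 was at 74.3, 82.8 and 82.2 CPM with DMSO and 104, 98.2 and 101 CPM with 915. ENSRNOG00000027593 was at 20.5, 27.0 and 22.4 CPM with DMSO and 38.9, 35.1 and 36.4 CPM with 915. Both rose without overlap, by log2 0.39 ± 0.0572 and 0.71 ± 0.0924 (edgeR adjusted p = 6.23e-05 and 2.06e-05), the second being the highest log2 fold change of all members. The ratio of the second row's counts to the first row's was 0.276, 0.326 and 0.272 with DMSO and 0.374, 0.357 and 0.361 with 915. The ratios did not overlap, which alone fixes the exact two-sided permutation p at 0.1, the smallest that 3 against 3 libraries allow. This ratio was chosen after its values were seen, so that p adds no support. What transcripts the 2 rows stand for was not tested.

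**Figure D3:**
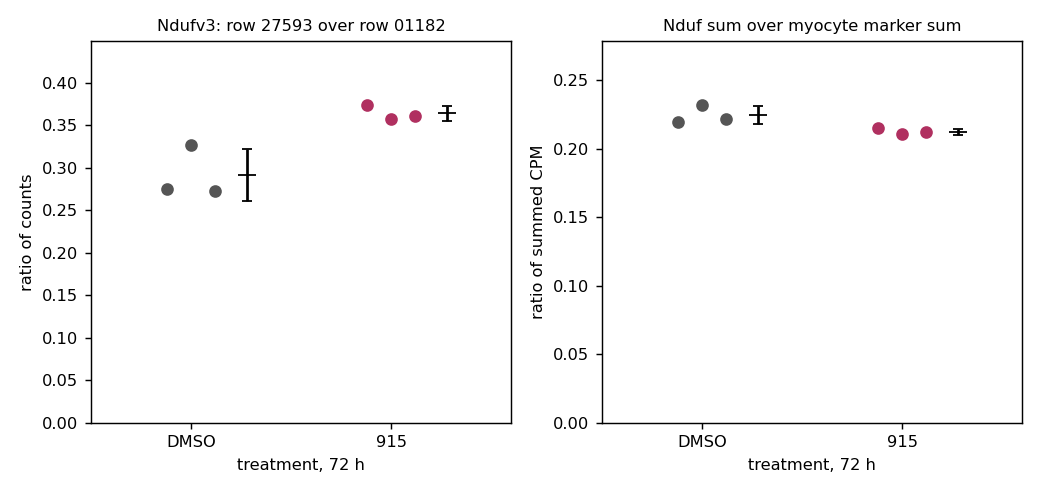
Left, counts of the second Ndufv3 row over counts of the first in each library; right, summed CPM of the 43 Nduf members over the summed CPM of 11 cardiomyocyte markers (points, libraries; bars, mean and SD, n = 3 per group). The Ndufv3 ratio is 0.291 ± 0.0303 with DMSO and 0.364 ± 0.00884 with 915, and the ratio to the myocyte markers is 0.224 ± 0.00664 and 0.213 ± 0.00216.

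Accessory subunits moved with the core. Of the 24 tested rows with these names, 22 were called higher and 1, Ndufa4l2, lower (median log2 fold change 0.48). Those shares were 24.3% and 25.5% over all genes tested. The most even group was Ndufb, whose tested genes all belong to the distal membrane arm. All 10 tested Ndufb genes were higher, each with separate groups. Among all genes tested, 23.9% had all 915 libraries above all DMSO libraries. The log2 fold changes of the Ndufb genes ran from 0.40 for Ndufb4 to 0.71 for Ndufb5 (median 0.50, SD over genes 0.0834). The 12 Ndufa genes, most of them from several places of the complex, included 10 that rose and 1 that fell (median 0.40). Ndufa4l2, which fell, and Ndufa4, which rose, carry the name but are not counted as complex I subunits by place.

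For Ndufb5 the DMSO libraries 1 to 3 gave 128, 141 and 132 CPM, and 915 libraries 1 to 3 gave 219, 207 and 206 CPM. This is a 1.63-fold rise with a wide gap between the groups (log2 0.71 ± 0.0530, edgeR adjusted p = 7.93e-08). Ndufb3 followed with 120, 137 and 129 CPM against 186, 189 and 190 CPM (1.51-fold, edgeR adjusted p = 6.78e-07). The lowest of the group, Ndufb4, still went from 239, 289 and 259 CPM to 356, 328 and 318 CPM (1.32-fold, edgeR adjusted p = 0.000221). The remaining Ndufb genes, Ndufb2 and Ndufb6 to Ndufb11, rose between 1.39-fold and 1.46-fold.

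The other 2 accessory genes above 1.5-fold lie elsewhere in the complex. Ndufa5, which sits on the Q module, was at 143, 162 and 150 CPM with DMSO and 226, 225 and 250 CPM with 915 (log2 0.67 ± 0.0603, edgeR adjusted p = 5.01e-07). Ndufc1, a small membrane subunit, was at 110, 120 and 118 CPM with DMSO and 177, 184 and 173 CPM with 915 (log2 0.67 ± 0.0516, edgeR adjusted p = 1.04e-07). Neither came near to overlapping. Its namesake Ndufc2 rose 1.32-fold, from 102, 116 and 103 CPM to 136, 139 and 136 CPM (edgeR adjusted p = 3.87e-05).

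Ndufab1 encodes the mitochondrial acyl carrier protein, which also serves fatty acid and lipoate synthesis. It rose 1.46-fold, from 136, 158 and 155 CPM to 227, 212 and 193 CPM, with separate groups (log2 0.54 ± 0.0689, edgeR adjusted p = 1.58e-05). Ndufa2, Ndufa6, Ndufa7, Ndufa8 and Ndufa10 rose between 1.28-fold and 1.38-fold, all without overlap. Ndufa10 was the steadiest, at 160, 161 and 161 CPM with DMSO and 208, 204 and 200 CPM with 915 (edgeR adjusted p = 4.43e-06). Ndufa11, a membrane arm subunit, was less even, at 200, 225 and 185 CPM with DMSO and 243, 220 and 271 CPM with 915. Its groups overlapped in CPM through DMSO library 2 and 915 library 2, although the gene passed the test (log2 0.32 ± 0.0792, edgeR adjusted p = 0.00430).

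Ndufa12, a late-joining subunit of the N module, was the accessory gene called higher by the smallest margin. It had 70.8, 67.7 and 72.5 CPM with DMSO and 70.0, 74.6 and 85.5 CPM with 915, so that the groups overlapped and the difference rested mostly on 915 library 3 (log2 0.17 ± 0.0692, edgeR adjusted p = 0.0493). The call was lost without DMSO library 1, 2 or 3 (edgeR adjusted p = 0.110, 0.0867 and 0.0603) and without 915 library 2 or 3 (0.0545 and 0.259), with a replicate block (0.0706), with library totals alone (0.173), with upper quartile scaling (0.0775) and with a filter of at least 10 CPM in 3 libraries (0.103). It was kept with DESeq2 size factors in edgeR (0.0414). Over all alternatives its edgeR or DESeq2 adjusted p ran from 0.0179 to 0.259.

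Ndufa4 and its paralog Ndufa4l2 went opposite ways. Ndufa4 was named as a complex I subunit but is now assigned to complex IV, and Ndufa4l2 is known as a hypoxia-inducible relative that restrains respiration. Ndufa4 was at 269, 291 and 289 CPM with DMSO and 395, 386 and 387 CPM with 915 (1.42-fold, edgeR adjusted p = 8.10e-07). Ndufa4l2 was scarce, with 22, 13 and 19 reads in DMSO libraries 1 to 3 and 6, 4 and 6 reads in 915 libraries 1 to 3, or 0.512, 0.313 and 0.481 CPM against 0.157, 0.122 and 0.148 CPM. The groups were apart, and the gene was 2.90-fold lower with 915 (log2 −1.53 ± 0.458, edgeR adjusted p = 0.0123). The call was lost without DMSO library 1 (edgeR adjusted p = 0.0585) and in DESeq2 (adjusted p = 0.0558), with a range of 0.0102 to 0.0585 over its alternatives.

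Of the 6 Ndufaf assembly factors 3 were called higher and 0 lower, beside 24.3% and 25.5% of all genes tested. Whether this count exceeds the share over all genes was not tested. Among those called higher, Ndufaf4 had overlapping groups and lost its call in 7 of 13 alternatives. The median log2 fold change of the 6 factors was 0.24. Whether their response differs from that of the subunits was not tested. Ndufaf3, which acts early in Q module assembly, rose from 38.5, 40.6 and 38.8 CPM to 53.7, 47.5 and 51.4 CPM, with separate groups (log2 0.42 ± 0.0625, edgeR adjusted p = 6.81e-05). Ndufaf1, which acts on the membrane arm, rose from 14.1, 14.7 and 14.2 CPM to 16.7, 18.6 and 20.3 CPM, again with separate groups (log2 0.42 ± 0.0873, edgeR adjusted p = 0.00119). Ndufaf4, the partner of Ndufaf3, had 24.2, 22.1 and 29.1 CPM with DMSO and 28.8, 28.9 and 28.6 CPM with 915.

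The groups of Ndufaf4 overlapped because DMSO library 3 was the highest of all 6 (log2 0.24 ± 0.0873, edgeR adjusted p = 0.0316). Its call was lost without DMSO library 1 or 2 (edgeR adjusted p = 0.110 and 0.105) and without 915 library 1, 2 or 3 (0.0768, 0.0594 and 0.0692), with a range of 0.00177 to 0.110 over its alternatives. With these libraries left out, 2 of the 6 assembly factors were called higher, or 3 without DMSO library 2, where Ndufaf6 was called instead. The call of Ndufaf4 was also lost with library totals alone (edgeR adjusted p = 0.0917). The same held with at least 10 CPM required in 3 libraries (0.0632).

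The remaining assembly factors were not called. Ndufaf5, which hydroxylates the Ndufs7 protein, was at 22.7, 24.0 and 23.8 CPM with DMSO and 21.0, 20.3 and 21.6 CPM with 915. Its 915 libraries were all below its DMSO libraries in CPM, but it did not pass the test (log2 −0.11 ± 0.0694, 95% interval −0.26 to 0.04, edgeR adjusted p = 0.193). Ndufaf7, a methyltransferase that acts on the complex, overlapped at 17.9, 15.7 and 19.6 CPM against 18.8, 17.3 and 19.9 CPM (log2 0.13 ± 0.0911, edgeR adjusted p = 0.270). Ndufaf6 overlapped at 11.8, 15.4 and 14.1 CPM against 14.4, 17.1 and 15.3 CPM (log2 0.23 ± 0.108, edgeR adjusted p = 0.0914). Without DMSO library 2 it was called higher (edgeR adjusted p = 0.0196), with a range of 0.0196 to 0.370 over its alternatives.

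**Figure D4:**
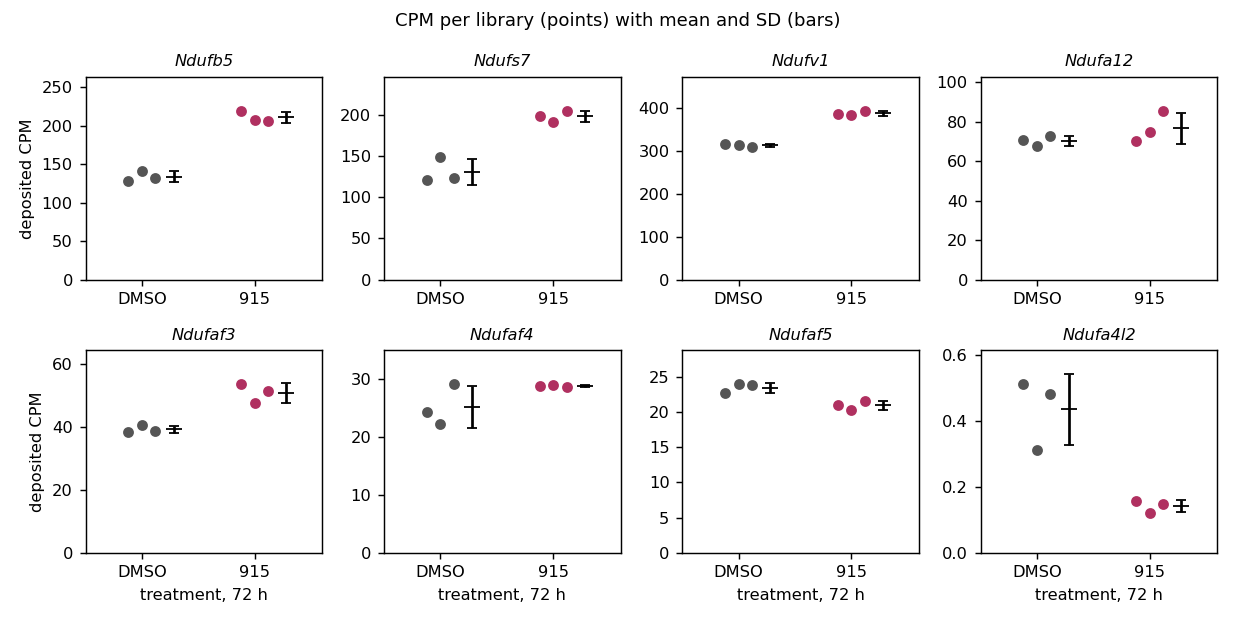
Deposited CPM (y axis, from 0, scaled per gene) of 8 Nduf genes in each of the 3 DMSO and 3 treated libraries (points), with mean and SD (bars). The groups are apart for Ndufb5, Ndufs7, Ndufv1, Ndufaf3, Ndufaf5 and Ndufa4l2 and overlap for Ndufa12 and Ndufaf4; Ndufaf5 lies lower with 915 by 1.08-fold and did not pass the test.

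Fold changes varied somewhat among members, but a difference between members was not tested. The 95% interval of the log2 fold change, not adjusted for the number of members, held their median of 0.41 in 29 of the 42. It lay above the median for 8 genes, namely Ndufb5, Ndufa5, Ndufc1, Ndufb3, Ndufb2, Ndufs7, Ndufv2 and the second Ndufv3 row, and below it for 5, namely Ndufa4l2, Ndufa12, Ndufs6, Ndufaf5 and Ndufaf7. By place in the complex, the medians were 0.39 for 9 rows of the N module, 0.51 for 5 of the Q module, 0.36 for 7 of the proximal membrane arm and 0.50 for 10 of the distal membrane arm. The N module rows include the Ndufs6 pseudogene row and both Ndufv3 rows, and the proximal rows include the scarce Ndufa13 row (log2 0.29). Ndufa6, Ndufa7 and Ndufab1 were put in none of these places and had a median of 0.46. These medians are descriptions, and the differences between places were not tested.

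Symbol and working gene did not coincide for every row. The row named Ndufa13 had 1.57 to 2.35 CPM and was not called (log2 0.29 ± 0.203, edgeR adjusted p = 0.252), while the Entrez number that RefSeq gives to Ndufa13 belongs to the row LOC100911483. That row was at 252 ± 31.2 CPM with DMSO and 324 ± 19.6 CPM with 915 (SD, n = 3 each; log2 0.41 ± 0.0766, edgeR adjusted p = 0.000461). By the same match LOC108348144 is Ndufa1, which rose by log2 0.18 ± 0.0639 (edgeR adjusted p = 0.0306) with overlapping groups. LOC690871 is the assembly factor gene Ndufaf8, which rose by log2 0.37 ± 0.0889 (edgeR adjusted p = 0.00337). These 3 rows were added after their values were seen. Ndufb4l1, the member that was not tested, had 1 read in DMSO library 2 and 0 in the other libraries. With rows chosen by Entrez number, 38 of 42 tested were called higher and 0 lower, and the median was 0.41. Those shares were 24.3% and 25.5% over all genes tested. The 42 include 1 of the LOC rows paired with both Ndufs6 and Ndufs6-ps1, which was not called. Ndufa3, Ndufa9, Ndufb1 and Ndufaf2 were not analysed here.

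The complex I genes of mitochondrial DNA, which encode the proton-pumping core, were also higher for the most part. Of these, 6 of 7 were called higher, beside 24.3% of all genes tested. The median log2 fold change of the 7 was 0.31. Mt-nd5 changed most, from 4475 ± 447 to 6520 ± 696 CPM (SD, n = 3 each; log2 0.59 ± 0.0764). Mt-nd3 did not pass, at 3258 ± 327 and 2811 ± 493 CPM (log2 −0.17 ± 0.103, edgeR adjusted p = 0.199). Mt-nd6 (log2 0.51 ± 0.0784) lies opposite other mitochondrial genes, and because the strand setting of the counting is not given its reads cannot be told apart from theirs. Together the 7 genes took 3.09% ± 0.0967 of the library totals with DMSO and 3.79% ± 0.238 with 915. The summed CPM of the nuclear members was 0.168, 0.184 and 0.163 of the mitochondrial sum in DMSO libraries 1 to 3 and 0.194, 0.171 and 0.198 in 915 libraries 1 to 3, which overlapped.

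Of 16 listed assembly factors outside the Nduf names, 12 had a row. Of these rows, 9 were called higher and 0 lower, beside 24.3% and 25.5% of all genes tested (median log2 fold change 0.33). One is the row named Chchd4, whose Entrez number RefSeq gives to the pseudogene Chchd4-ps1; without it 8 of 11 were called higher, with a median of 0.31. Tmem126a and Timmdc1, membrane arm factors, rose by log2 0.60 ± 0.0582 and 0.57 ± 0.0662. Ecsit and Tmem126b, of the assembly complex that also holds Ndufaf1 and Acad9, rose by 0.41 ± 0.0672 and 0.40 ± 0.0765, while Acad9 itself did not pass (0.11 ± 0.0641, edgeR adjusted p = 0.165). Nubpl, which delivers iron-sulfur clusters to complex I, was at 8.29 ± 1.18 and 8.08 ± 0.784 CPM (log2 0.01 ± 0.122, edgeR adjusted p = 0.950). The Chchd4 row was scarce, at 1.00 ± 0.191 and 1.77 ± 0.301 CPM (log2 0.86 ± 0.255), and no value is given for the working gene.

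The other respiratory complexes had medians close to that of the Nduf members. Subunits of complex II, nuclear complex III, nuclear complex IV and ATP synthase were higher in 4 of 4, 9 of 9, 12 of 13 and 15 of 15 tested rows, with medians of 0.46, 0.40, 0.42 and 0.45. Uqcrb of complex III and Cox6b1 of complex IV each had 2 rows. The ATP synthase row Atp5f1 was scarce, at 8.66 ± 0.634 CPM with DMSO and 11.5 ± 1.41 CPM with 915 (SD). Uqcr10 and Cox7b had no row under these symbols, and Cox7a1 was not tested. The remaining complex IV row, Cox4i2, was lower with 915 (log2 −0.78 ± 0.200, edgeR adjusted p = 0.00469). No test of a difference between these lists and complex I was made. Markers of cell types moved in the same libraries, in which 24.3% of all genes tested were called higher and 25.5% lower. All 11 tested cardiomyocyte markers were higher, with a median of 0.64, while 8 of 11 fibroblast, 5 of 6 smooth muscle, 4 of 8 endothelial and 6 of 9 macrophage markers were lower, with medians of −0.55, −0.79, −0.56 and −1.08. Another 2 fibroblast markers, Dcn (log2 0.48 ± 0.0444) and Pdgfra (0.28 ± 0.0475), and 1 endothelial marker, Kdr (0.26 ± 0.0702), were higher. The fibroblast marker Postn was not called (0.04 ± 0.0443, edgeR adjusted p = 0.473).

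Summed smooth muscle markers ran from 1770 to 1909 CPM with DMSO and 738 to 790 CPM with 915, endothelial markers from 71.7 to 74.6 and 56.9 to 57.3 CPM, and macrophage markers from 263 to 295 and 136 to 163 CPM. No marker of the 5 lists was at 0 in any library. Relative to the summed cardiomyocyte markers, the summed members were at 0.220, 0.232 and 0.222 in DMSO libraries 1 to 3 and at 0.215, 0.211 and 0.212 in 915 libraries 1 to 3. On this scale the 915 libraries lay below the DMSO libraries, at 0.947 times their mean. Single cardiomyocyte markers changed by log2 0.23 (Actn2) to 1.07 (Tnni3), on both sides of the members' median of 0.41. Tnnt2, the most abundant with DMSO, changed by 0.29 and Myh6 by 0.81. The ratio therefore depends on which markers are summed and is not a level per myocyte. The part of the marker changes in the higher complex I transcripts was not tested.

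**Figure D5:**
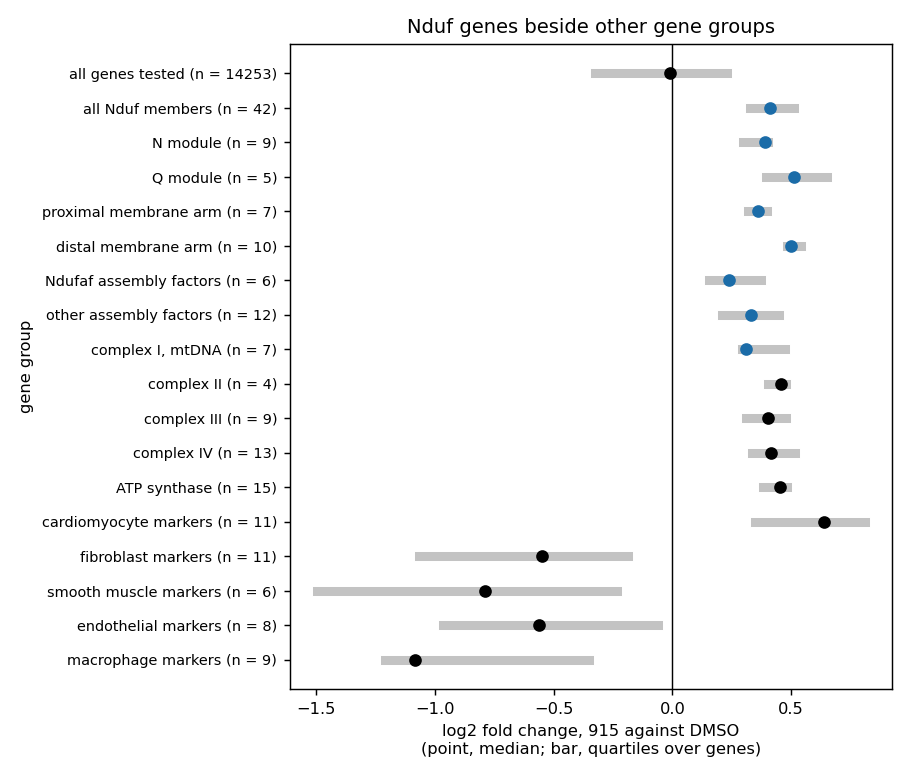
Median (point) and quartiles over genes (bar) of the log2 fold change with 915 (x axis) for all genes tested, the Nduf members and their places in the complex, other assembly factors, mitochondrially encoded complex I genes, the other complexes and cell type markers (y axis, n tested genes). The Nduf members (0.41) lie among the other complexes (0.40 to 0.46), below the cardiomyocyte markers (0.64) and above the other cell type markers (all below 0).

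Since the members moved together, their promoters were searched for motifs of factors known to act on respiratory chain genes. RefSeq sequences of GRCr8, a later assembly than that of the counts, were found for 35 of the 43 members, each from 250 bases before to 50 after the start. The ERR element TNAAGGTCA (N is any base) was in 1 of 35, against 0.637% of the 10200 promoters of tested genes and 1.15% of all 27457 in the table. This copy, in Ndufb4, lies after the start. The core AAGGTCA, which the element contains, was in 3 of 35 (8.57%, against 2.97% of tested genes and 4.37% of all). The NRF1 motif, GCGCA and GCGC with any single base between them, was in 8 of 35 (22.9%, against 9.32% and 4.71%). The ETS core CCGGAAG, bound by GABP, was in 6 of 35 (17.1%, against 16.5% and 9.22%). Both strands were searched, and a match is a description of the letters in this window only.

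The YY1 core AANATGGC was in 13 of 35 promoters (37.1%, against 9.18% and 7.36%). It contains ATG followed by G and so can also match a translation start, and 5 of 35 held it before the start site. The median log2 fold change of members was 0.32 with the NRF1 motif and 0.48 without it. It was 0.40 with and 0.42 without the ERR core, 0.44 and 0.42 for ETS, and 0.46 and 0.40 for YY1. No test was made of these differences.

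7 promoters are shown for their matches. They are accessory genes with some of the highest fold changes and a match (Ndufb5, Ndufa5), a catalytic core gene with matches to 2 motifs (Ndufs8), both genes with an ERR core before the start (Ndufb2, Ndufs5), the gene with overlapping NRF1 matches (Ndufa11) and an assembly factor that was not called (Ndufaf5). Each is the 250 bases before the start, 5′ to 3′ on the gene's strand, with matches in capitals.
Ndufb5, GRCr8 chr2:117447355-117447604, plus strand: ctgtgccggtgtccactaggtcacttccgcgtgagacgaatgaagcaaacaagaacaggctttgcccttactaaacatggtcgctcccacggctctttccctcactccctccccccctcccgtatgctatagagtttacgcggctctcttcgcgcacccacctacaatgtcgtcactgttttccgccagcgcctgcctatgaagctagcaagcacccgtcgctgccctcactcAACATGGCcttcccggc
Ndufa5, GRCr8 chr4:53971236-53971485, minus strand: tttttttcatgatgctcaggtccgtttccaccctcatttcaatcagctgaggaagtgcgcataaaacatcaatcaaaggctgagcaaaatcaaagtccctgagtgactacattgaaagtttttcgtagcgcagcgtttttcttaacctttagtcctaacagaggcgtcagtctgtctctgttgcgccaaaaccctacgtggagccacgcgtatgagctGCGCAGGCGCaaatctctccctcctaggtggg
Ndufs8, GRCr8 chr1:210573699-210573948, minus strand: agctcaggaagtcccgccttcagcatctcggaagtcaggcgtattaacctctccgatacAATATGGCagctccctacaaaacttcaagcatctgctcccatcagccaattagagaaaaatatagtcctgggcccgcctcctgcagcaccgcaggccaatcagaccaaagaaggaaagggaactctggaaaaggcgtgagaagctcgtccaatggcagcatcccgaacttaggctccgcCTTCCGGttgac
Ndufb2, GRCr8 chr4:69334057-69334306, plus strand: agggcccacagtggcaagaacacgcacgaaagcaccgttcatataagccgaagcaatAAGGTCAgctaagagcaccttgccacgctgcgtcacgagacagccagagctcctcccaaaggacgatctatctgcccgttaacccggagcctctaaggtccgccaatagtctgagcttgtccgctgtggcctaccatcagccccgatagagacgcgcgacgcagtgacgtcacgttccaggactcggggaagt
Ndufs5, GRCr8 chr5:141264403-141264652, minus strand: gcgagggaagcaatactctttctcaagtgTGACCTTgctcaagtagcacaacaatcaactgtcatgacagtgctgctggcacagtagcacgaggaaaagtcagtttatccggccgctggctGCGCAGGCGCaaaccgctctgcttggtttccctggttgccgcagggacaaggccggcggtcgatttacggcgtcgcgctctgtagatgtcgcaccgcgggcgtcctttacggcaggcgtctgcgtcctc
Ndufa11, GRCr8 chr9:1637364-1637613, plus strand: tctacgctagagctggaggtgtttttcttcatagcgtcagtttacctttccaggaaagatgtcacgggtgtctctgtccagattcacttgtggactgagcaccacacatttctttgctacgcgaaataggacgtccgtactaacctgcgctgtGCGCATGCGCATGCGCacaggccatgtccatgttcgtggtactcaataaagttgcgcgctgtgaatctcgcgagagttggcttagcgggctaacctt
Ndufaf5, GRCr8 chr3:147961362-147961611, plus strand: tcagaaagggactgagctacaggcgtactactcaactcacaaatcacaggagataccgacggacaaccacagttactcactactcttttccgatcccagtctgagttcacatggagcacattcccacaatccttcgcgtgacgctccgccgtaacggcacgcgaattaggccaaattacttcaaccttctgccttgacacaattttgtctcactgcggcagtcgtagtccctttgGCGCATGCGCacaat

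In Ndufb5 the capitals are the YY1 core, which begins 17 bases before the start. In Ndufa5 they are an NRF1 match that begins 32 bases before the start, and in Ndufaf5, whose level was not called changed, an NRF1 match at 15 bases. Ndufs8 has the YY1 core at 191 bases and, on the opposite strand, an ETS core at 12 bases. In Ndufb2 the capitals mark an ERR core at 193 bases, and in Ndufs5 an ERR core at 221 bases on the opposite strand and an NRF1 match at 129 bases. Ndufa11 has NRF1 matches at 97 and 91 bases.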

How the data were processed

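RNA from 3 DMSO and 3 treated cultures was sequenced, and the authors used STAR 2.5.1a, Subread featureCounts 1.4.6-p5 and build Rnor_6.0, per the submitters' processing notes. The sources used here do not give strand or multi-mapping settings, so reads of similar gene copies may be split or lost. Deposited counts (22641 rows, 993 of them repeats of an identifier that were dropped) were filtered with filterByExpr, scaled by TMM and fitted on group with the quasi-likelihood test of edgeR 4.0.16 in R 4.3.3, two-sided, with a Benjamini-Hochberg threshold of 0.05. Fold changes are relative to TMM-scaled totals, and an SE is the log2 fold change divided by the square root of F. Deposited CPM values are counts divided by 1 total per library, which exceeds the table (93.1% to 93.7% of it). Replicate libraries differed beyond counting noise (chi-square over its degrees of freedom was 5.45 to 11.6), so none was a copy. The fit was also run on simulated counts with the same library-to-library spread for every gene, unlike real data. That run checks the code and says nothing about the calls made here.

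The members and the lists were chosen with earlier results of these data known. Genes were named by a rule: every Ndufs and Ndufv row (values of 1 gene are not reported here), the 5 highest and 5 lowest log2 fold changes of the other classes, every member not called, lower or not tested, and fixed members such as Ndufa4 and Ndufab1. Alternatives covered scaling, filters, DESeq2 1.42.0, a replicate block and leaving out each library. Compound 332, which the design text names, was not analysed here.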

Additional observations from a re-analysis of the deposited data

How the results depend on the processing

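Across the alternatives of scaling, filter, test, replicate block and left-out libraries, 38 of the 42 tested members kept their direction and their side of the threshold in each one in which they were tested. Of 543 gene values, 18 were no longer past the threshold, 1 newly passed it and 0 reversed; these belonged to Ndufa12, Ndufaf4, Ndufa4l2 and Ndufaf6. Members called higher numbered 34 to 36 over all these settings, and 34 to 35 with a library left out, with a median log2 fold change of 0.35 (library totals alone) to 0.46 (without DMSO library 2). Members called lower, and accessory subunits called lower, numbered 0 with at least 10 CPM required in 3 libraries, where Ndufa4l2 was not tested, 0 in DESeq2, and 0 to 1 with a library left out. Members called lower were also 0 among rows matched by Entrez number, an alternative chosen after seeing the data. With the sum of the count table as the denominator the members' share was 0.570% with DMSO and 0.757% with 915. With promoters limited to the bases before the start, 0 members held the ERR element and 5 the YY1 core. The replicate numbers are not said to mark a shared culture, and same-numbered libraries did not deviate together (correlations −0.03, −0.11 and −0.09). With the replicate block 35 members were higher and 1 lower, the change being the call of Ndufa12. Depth limits Ndufa4l2, the Ndufs6 and Ndufa13 rows and Ndufb4l1, which had few reads.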
